A study of Mus musculus with 2 samples.

Results

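Integrins are surface receptors made of 1 alpha and 1 beta chain, and this account covers the 10 chain genes best known from T cells: Itgal, Itgb2, Itga4, Itgb1, Itgb7, Itgav, Itgb3, Itga6, Itga2 and Itga1. Every probe whose gene symbol in the annotation of the array platform is one of these was taken, which gave 17 probes of the 55681 on the array and 10 of 20738 named genes. The chains were measured in CD4 T helper cells of C57BL/6 mouse spleen, on 1 array labelled Gfi1 wild type and 1 array labelled Gfi1 knock out. Gfi1 encodes a zinc-finger protein that represses transcription. According to the labels, cells isolated as naive CD4 T cells (CD44 low, CD62L high, CD25 negative) of both genotypes were cultured for 2 days on immobilised anti-TCR-β antibody at 3 µg/ml. Anti-CD28 was added at 1 µg/ml, IL-2 at 10 ng/ml, and neutralising anti-IL-4 and anti-IFN-γ at 5 µg/ml each. The sources used here do not give the age, the number of animals or the construction of the Gfi1 allele. With 1 array per genotype label there is no replicate check and no test, so every difference is between these 2 arrays and not shown to be one between genotypes.

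An integrin binds ligands on other cells or in the extracellular matrix, and in resting leukocytes it is mostly kept in a bent form of low affinity. Signals from the T cell receptor or chemokine receptors activate the small GTPase Rap1, which brings talin and kindlin to the tail of the beta chain and opens the receptor. In T cells the chains Itgal and Itgb2 form LFA-1, which binds ICAM molecules on antigen-presenting cells and endothelium. Itga4 pairs with Itgb1 in VLA-4, which binds VCAM-1 and fibronectin, or with Itgb7 in the receptor for MAdCAM-1 that guides T cells to the gut. Itgav pairs with several beta chains, Itgb3 among them, in receptors for vitronectin, osteopontin and latent TGF-β. Itga6 with Itgb1 binds laminin, and Itga1 and Itga2 with Itgb1 bind collagen.

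Of the 10 chains 8 were detected, and Itgav was the single one that differed by at least 2-fold. It was 2.23-fold higher on the knockout-labelled array (log2 1.15 ± 0.24, SD over 2 probes). Itga4 was 1.51-fold lower (log2 -0.60 ± 0.05, 2 probes). The other 6 detected chains, which include both chains of LFA-1, stayed within 0.25 of 0 on the log2 scale. Itga2 and Itga1 lay below the floor on both arrays. A gene was called detected where a probe exceeded the median probe signal of that array (14.2 units for wild type and 14.6 units for knockout by label), and a signal under it was set to this floor. All differences are log2, knockout-labelled minus wild-type-labelled, after subtracting the 75th percentile of each array (263 and 269 units). Of 13411 detected genes 3.62% were higher by 2-fold or more and 1.52% lower by as much, so 1 of 8 detected chains (12.5%) past 2-fold is a count too small to be read as a share above the 5.14% of all genes. The median size of the difference, whatever its sign, was 0.22 over the 8 chains and 0.18 over all detected genes. Of the 8 chains 4 lay above 0 and 4 below, with a median of 0.06, against -0.05 over all detected genes. Of all 13411 detected genes 5581 lay above 0 and 7830 below.

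**Figure D1:**
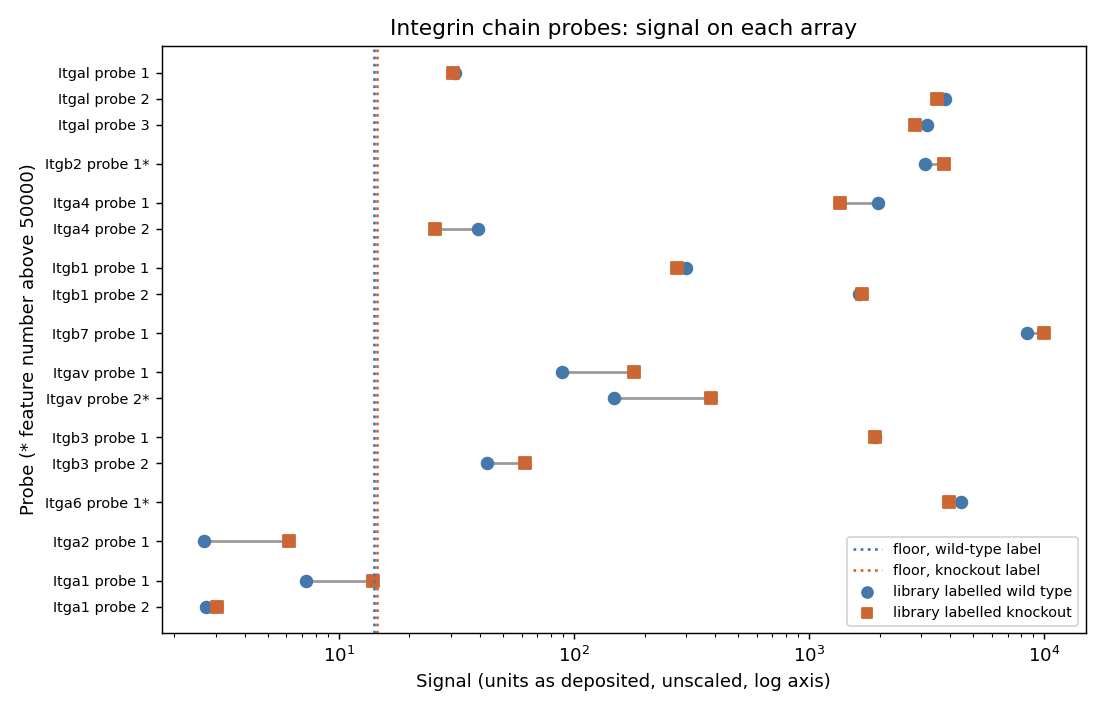
Signal of each integrin probe in units as deposited (log axis), a circle for the wild-type-labelled and a square for the knockout-labelled array, with dotted lines at the floors. Both Itgav probes lie further right on the knockout-labelled array, both Itga4 probes further left, and the 3 probes of Itga2 and Itga1 lie under the floors.

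The libraries stand apart in several ways that touch every value here. The single Gfi1 probe read 4260 units on the wild-type-labelled array and 18100 on the other, 4.15-fold higher where the labels name a knockout. Its feature number is 55280, in the stretch above 50000 that is described below for Itgav. The shares given there are for spots of 50 to 500 units, dimmer than this probe. Among the 1518 genes within 1 log2 unit of the Gfi1 level, 0.132% were at least as far above 0. The sources used here do not say whether the Gfi1 probe lies in the deleted part, so directions rest on the labels alone. Xist read 447 and 3.86 units and the Y-linked Eif2s3y 2.91 and 3870 units. The libraries thus differ in sex-linked transcripts as well as in genotype label. For every gene here, a difference that goes with sex and one that goes with the label cannot be told apart. All 9 measured CD4 T cell markers were detected, among them Cd4 (2319 and 2146 units), and all 9 lay below 0, between -0.51 and -0.11. Beside them 7830 of 13411 detected genes lay below 0 and 5581 above. All 11 CD8 T and NK cell markers were higher, with a median of 1.46 and a summed signal of 1069 and 3217 units. Eomes alone read 649 and 1843 units of that sum. Outside that list, Tbx21 (289 and 2360 units) and Ifng (279 and 4944 units) were also higher, each on 1 probe with a feature number above 50000. Cd8a, Klrk1, Klrb1c and Ncr1 were below the floor on the wild-type-labelled array, so their differences are bounds set by that floor. B cell markers had a median of 0.39, with Cd79b at -0.17 and Pax5 below the floor on both arrays. Their summed signal was 528 and 1122 units, and 479 and 515 units without Ms4a1 (18.9 and 221 units) and Blnk (30.6 and 386 units). Myeloid markers had a median of 0.01, with Lyz2, Cd14, Itgax and Cybb below the floor on both arrays. Their summed signal was 340 and 658 units, and 328 and 323 units without Mpeg1 (11.7 and 335 units). Itgam entered these sums as a geometric mean over 3 probes (161 and 157 units). Its bright probe read 4250 and 5170 units (0.25), and its dim ones 33.0 and 27.3 units and 29.9 and 27.4 units. The sums therefore depend on how probes of a gene are averaged. Whether such other cells were present, and what part they had in the values of the integrin chains, was not tested. In a bulk library fewer cells of a type and less RNA per cell cannot be told apart.

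The spread within the arrays came from probes printed on 10 spots. Their median SD of the difference was 0.35 between 15 and 50 units (32 probes), 0.11 between 50 and 500 units (63 probes), 0.05 between 500 and 5000 units (103 probes) and 0.04 above (40 probes). Single probes in the second class reached an SD of 0.71. These SDs cover variation between spots alone, not between cultures or animals. Levels of different genes are not set against each other, since probes differ in how brightly they read.

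The alpha v chain, Itgav, was read by 2 probes. The first read 89.0 units on the wild-type-labelled array and 180 units on the knockout-labelled array, and the second 149 and 382 units. Both were thus brighter on the knockout-labelled array, by 0.98 (1.98-fold) and by 1.33 (2.51-fold), many times the median SD of 0.11 between spots of that brightness. The brighter probe lies at feature number 62195, in a stretch of the array where differences were more frequent. Of 2052 spots of 50 to 500 units with feature numbers above 50000, 5.51% were at least 2-fold higher, against 3.27% of 7527 spots of that brightness up to 50000. At least 2-fold lower were 3.51% and 0.943%, so differences were more frequent in both directions. Leaving out the late-numbered spots, Itgav stood at 0.98 on its first probe and no longer passed 2-fold, with 3.12% of 11232 genes at least 2-fold higher in that setting. With the floor raised to the 75th percentile of the probes (263 and 269 units), the first probe drops out and the wild-type side of the second is set to the floor. The difference is then a lower bound of 0.51, which does not bear on the 2-fold call. Among all detected genes 2.75% were at least as far above 0 as Itgav, and among the 2506 genes within 1 log2 unit of its level 3.63% were. The 3 detected genes nearest to Itgav in the signals of both arrays were Tle1 (1.04), Ms4a4a (1.13) and Aldh1l1 (1.03). With 2 arrays such likeness rests on 2 points and is given as a description.

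Start-site windows show what sequence lies before the chains that stood furthest from 0 on either side. RefSeq windows of build GRCm38.p6, 250 bases before to 50 bases after the annotated start, were found for 6 of the 10 genes: Itgav, Itga4, Itgb1, Itgb7, Itga2 and Itga1. Itgav lies at chr2:83724147-83724446 and Itga4 at chr2:79255176-79255475, both on the plus strand. The windows are written 5′ to 3′, with the letters AATC, the core of the motif that GFI1 is known to bind, in capitals on either strand (GATT on the minus strand).
Itgav: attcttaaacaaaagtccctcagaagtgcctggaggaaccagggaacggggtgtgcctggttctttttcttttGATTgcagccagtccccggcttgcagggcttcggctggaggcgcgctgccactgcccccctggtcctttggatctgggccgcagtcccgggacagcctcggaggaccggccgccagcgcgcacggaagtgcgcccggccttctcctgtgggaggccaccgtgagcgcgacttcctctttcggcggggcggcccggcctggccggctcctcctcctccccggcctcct
Itga4: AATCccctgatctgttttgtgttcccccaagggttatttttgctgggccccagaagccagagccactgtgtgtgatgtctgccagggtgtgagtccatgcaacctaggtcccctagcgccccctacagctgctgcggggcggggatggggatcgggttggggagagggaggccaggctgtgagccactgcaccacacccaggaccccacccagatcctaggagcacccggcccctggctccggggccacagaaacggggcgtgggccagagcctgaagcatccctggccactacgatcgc
Each holds 1 match, on the minus strand in Itgav and on the plus strand in Itga4. Itga1 and Itgb7 also hold 1 match each, and Itgb1 and Itga2 hold 0. Of 32851 such windows 73.1% hold at least 1 match, with a median of 1, so windows with and without it are both frequent. The longer form AAATCAC, which contains the core, is in 3.20% of all windows and in 0 of the 6. Both windows are rich in G and C, 67.3% for Itgav and 64.3% for Itga4. The matches are descriptions of letters and do not show binding.

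**Figure D2:**
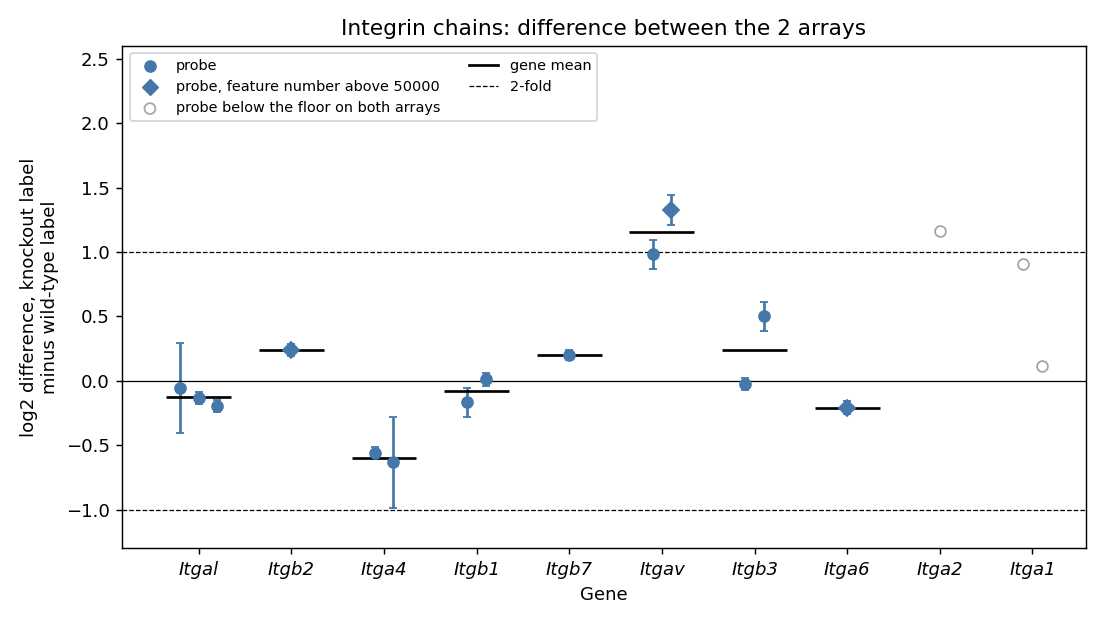
Log2 difference of each probe (points) and the mean of each detected gene (bars), knockout-labelled minus wild-type-labelled. Error bars are the median SD between replicate spots of like brightness, diamonds mark feature numbers above 50000, and open points lie under the floor on both arrays, with no error bar. Itgav is the one gene mean above the 2-fold line, and its 2 probes lie on either side of that line.

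The beta 3 chain, Itgb3, one partner of alpha v, gave 2 different readings. Its bright probe read 1910 units on the wild-type-labelled array and 1920 on the other, a difference of -0.03 after scaling. Its dim probe read 42.7 and 61.8 units, a difference of 0.50. The mean of 0.24 ± 0.37 (SD over 2 probes) is smaller than the spread between its probes, and its sign turned with the brightest probe per gene and with the higher floor, at -0.03 in both. Itgb5, a beta chain that pairs with alpha v alone, was 2.38-fold higher (47.2 and 115 units, 1 probe, log2 1.25). Itgb1, which also pairs with alpha v, stood at -0.08, and the further alpha v partners Itgb6 and Itgb8 lay below the floor on both arrays. Itga2b, the platelet chain that is the other partner of Itgb3, was likewise below it (6.20 and 12.5 units).

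The alpha 4 chain, Itga4, was the lowest of the detected chains. Its bright probe read 1960 units on the wild-type-labelled array and 1360 on the knockout-labelled array (-0.56), and its dim probe 39.1 and 25.8 units (-0.63). The bright probe differed by far more than the 0.05 between spots of that brightness, while the dim one, with a spot SD of 0.35, adds little precision of its own. Among all detected genes 4.09% were at least as far below 0, and 11.9% differed by 1.5-fold either way. Over the alternatives tried Itga4 stayed between -0.60 and -0.49, below 0 in each and never past 2-fold.

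Neither beta partner of alpha 4 stood as low. Itgb1 is the beta chain shared by VLA-4, the laminin-binding pair with Itga6 and the collagen receptors. It read 301 and 274 units on 1 probe (-0.17) and 1630 and 1680 units on the other (0.01). The mean for Itgb1 was -0.08 ± 0.13 (SD over 2 probes). That is within the spread between its probes, and its sign turned with the brightest probe. Itgb7, the chain of the gut-homing receptor, read 8490 and 9960 units on its single probe, 1.15-fold higher (0.20), which exceeds the spot SD of 0.04. Of all detected genes 20.6% were at least as far above 0.

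LFA-1, the main adhesion receptor of the T cell contact zone, differed little in either chain. Itgal, its alpha chain, was read by 3 probes at 3780 and 3520 units, 3180 and 2840 units, and 31.2 and 30.7 units. All 3 read lower on the knockout-labelled array (-0.14, -0.20 and -0.06), a mean of -0.13 ± 0.07 (SD over 3 probes). Itgb2, the beta chain common to all leukocyte beta 2 integrins, read 3110 and 3760 units on its single probe, 1.18-fold higher (0.24). The 2 chains of this receptor thus lay on opposite sides of 0, each bright probe further than the spot SD of 0.05. As many as 35.5% of detected genes were at least as far below 0 as Itgal, and 18.2% as far above as Itgb2. The Itgb2 probe has feature number 60897, so the chain has no value without those spots.

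Of the laminin and collagen receptor alpha chains among the 10 genes, Itga6 was detected and Itga2 and Itga1 were not. Itga6 read 4450 units on the wild-type-labelled array and 3940 on the other, 1.16-fold lower (-0.21). Its feature number is 51942, so it has no value without the late-numbered spots. Itga2, also known as CD49b and as the antigen DX5 by which NK cells are sorted, read 2.68 and 6.13 units, below the floor on both arrays. Itga1, a chain of tissue-resident lymphocytes, read 7.29 and 14.0 units on 1 probe and 2.74 and 3.03 units on the other, also below it. No fold is given for these genes. In the CD8 T and NK cell list, which holds neither Itga2 nor Itga1, Klrd1 read 82.1 and 282 units and Tyrobp 53.1 and 186 units. Klrc1 read 19.0 and 189 units, Klra4 26.6 and 119 units and Fcer1g 89.4 and 252 units. Klrk1 (4.02 and 18.2 units), Klrb1c (4.40 and 20.8 units) and Ncr1 (10.2 and 28.3 units) were below the floor on the wild-type-labelled array. Whether NK cells were present was not tested.

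**Figure D3:**
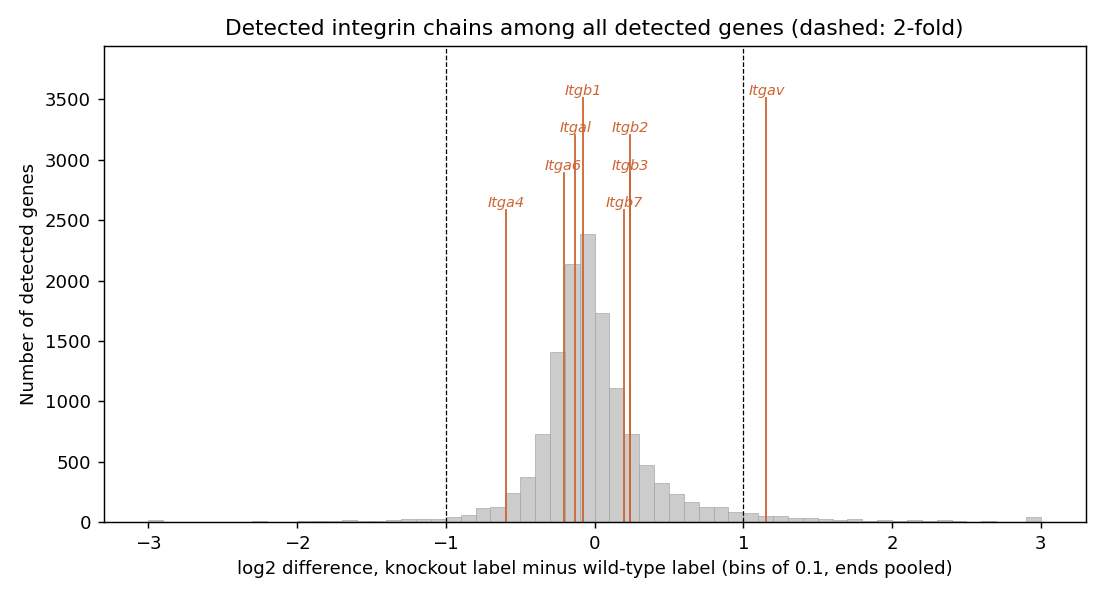
Number of detected genes by log2 difference (grey, bins of 0.1, values beyond the ends pooled in the end bins), with the 8 detected integrin chains as lines whose heights only separate the names. Itgav (1.15) lies in the right tail, Itga4 (-0.60) on the left flank, and the other 6 lie within 0.25 of 0.

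The remaining integrin chains of the genome that were listed are used here for comparison. Of these 16, 8 were detected, 2 were higher by 2-fold or more and 0 lower, beside 3.62% and 1.52% of all genes, a count too small to be read as a share. Their median was 0.03. Beside Itgb5, the chain past 2-fold was Itga7, an alpha chain known from muscle that pairs with beta 1, at 28.0 and 119 units on 1 probe (2.05). Itga5, the fibronectin receptor chain, stood at 0.42 on a dim probe (24.4 and 33.3 units) against a spot SD of 0.35. Itgam, the alpha M chain of myeloid cells, stood at -0.07 ± 0.29 over 3 probes. Itgae, the chain that pairs with beta 7 in epithelial T cells, and Itgax, a dendritic cell chain, were below the floor on both arrays.

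Ligands, activators and partners of integrins were taken as further lists. Over these and the 16 further chains, 63 of 81 genes were detected, 5 of them (7.94%) were higher by 2-fold or more and 0 lower, beside 3.62% and 1.52% of all genes. Without the spots above feature number 50000 the higher ones were 4 of 56, beside 3.12% of all genes. The lists were chosen with earlier results of these data known, so the counts describe the genes and support no direction.

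Among 20 ligand genes 11 were detected, 3 above and 8 below 0, with a median of -0.16. Over all detected genes 5581 lay above and 7830 below 0, with a median of -0.05. Icam1, the ligand of LFA-1 that activated lymphocytes also carry, was 3.08-fold higher (111 and 350 units, 1 probe, log2 1.62). Spp1, which encodes osteopontin, a ligand of alpha v integrins, was at least 2.19-fold higher, from below the floor to 31.8 units. The other ICAM genes of the list lay below 0, Icam2 at -0.68 (9570 and 6100 units), Icam5 at -0.62 and Icam4 at -0.60, each on 1 probe. The ICAM genes, all ligands of LFA-1, therefore stood on both sides of 0. Vcam1 and Fn1, the ligands of VLA-4, were below the floor on both arrays.

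Of 24 genes for activators and adaptors of integrins all 24 were detected, with a median of 0.01. None passed 2-fold either way (0 of 24), a count near the 5.14% of all genes. Tln1, which encodes talin, stood at -0.32 ± 0.14 (SD over 2 probes), and Fermt3, the kindlin of blood cells, at -0.02. The furthest from 0 were Ptk2, which encodes focal adhesion kinase, at 0.90 ± 0.17 on 2 detected probes (75.2 and 132 units, and 22.2 and 45.9 units), and Actn1, an actin-binding alpha-actinin, at -0.41. Of 9 inhibitors 8 were detected, with a median of 0.01 and 0 past 2-fold, again near that share. Rasa3, a protein that switches off Rap1, stood at 0.34 and Cytip, which holds back cytohesin, at 0.31.

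Of 12 membrane partners all were detected, 8 above and 4 below 0, beside 5581 above and 7830 below of all detected genes. Their median was 0.15. Plaur, the urokinase receptor, which binds vitronectin and associates with integrins, was 4.39-fold higher (332 and 1490 units, log2 2.13) on a single spot with feature number 57736. Cd82, a tetraspanin, stood at 0.52 ± 0.05 over 3 probes. Cd47, which associates with the alpha v beta 3 receptor, stood at 0.39 ± 0.02 over 2 probes.

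**Figure D4:**
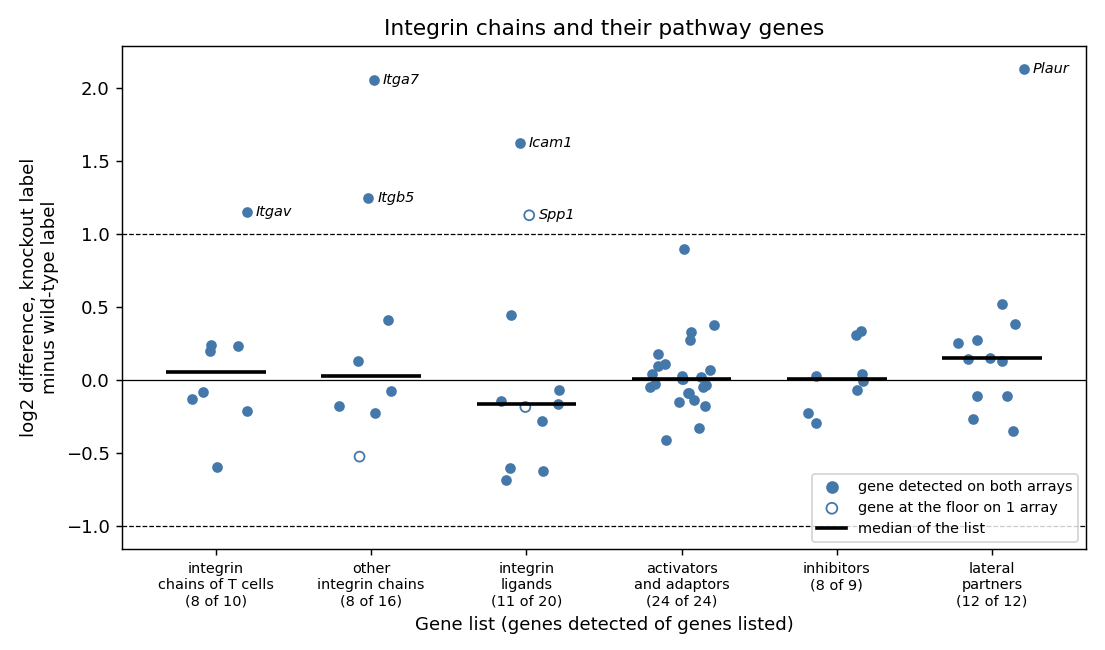
Log2 difference of each detected gene of the integrin chains of T cells and of 5 lists of pathway genes, knockout-labelled minus wild-type-labelled, with the median of each list as a bar and names for genes past 2-fold. The names all lie on the higher side, and the activators and inhibitors hold none.

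Grouped by receptor, the values of alpha and beta chains are set side by side, and the gaps between them were not tested. In the alpha 4 receptors the alpha chain stood at -0.60 and the beta chains at -0.08 (Itgb1) and 0.20 (Itgb7). For LFA-1 the values were -0.13 and 0.24. For the laminin-binding pair of Itga6 and Itgb1 they were -0.21 (Itga6, 1 probe) and -0.08 ± 0.13 (Itgb1, SD over 2 probes). For the alpha v receptors they were 1.15 for the alpha chain and -0.08 (Itgb1), 0.24 (Itgb3) and 1.25 (Itgb5) for the detected beta chains, so that of the pairs listed the alpha v beta 5 pair alone had both chains past 2-fold. This pair was singled out after its values were seen. Without the spots above feature number 50000 Itgav stood at 0.98, short of 2-fold, and Itgb5 rests on 1 probe (47.2 and 115 units).

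**Figure D5:**
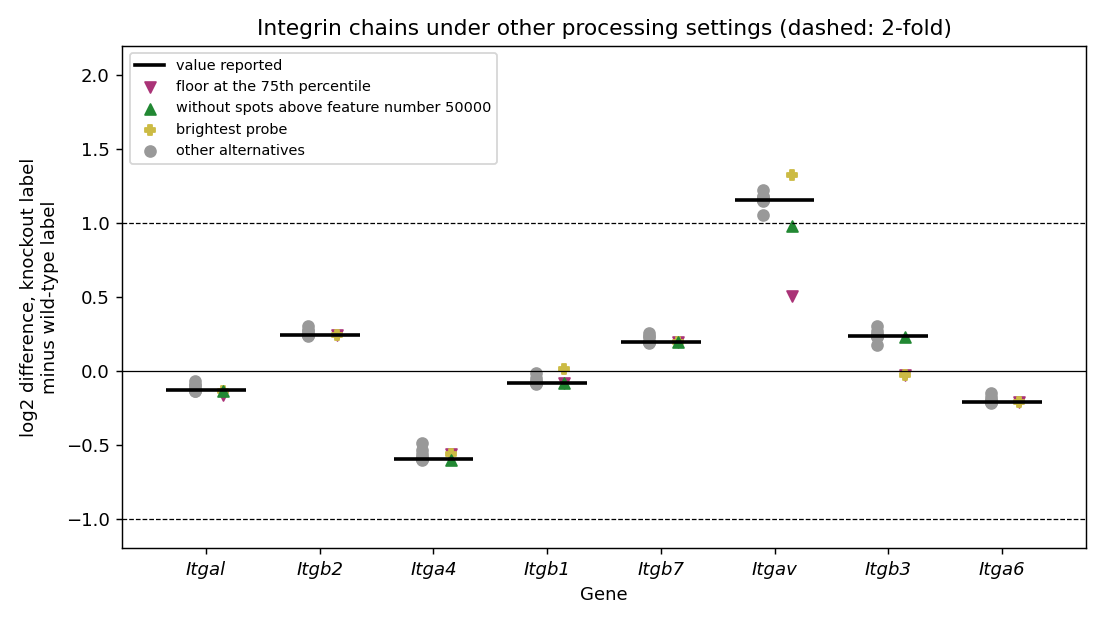
Log2 difference of each detected chain as reported (bar) and under the alternatives (points). Itgav stayed above 0 throughout and passed 2-fold except without spots above feature number 50000 (0.98) and with the floor at the 75th percentile, where 0.51 is a lower bound set by that floor, while Itgb1 and Itgb3 crossed 0 with the brightest probe and Itgb3 also with the higher floor.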

How the data were processed

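Each of the 2 mouse arrays (1 colour, Cy3) gave 59305 spots. The input was 100 ng of total RNA per the labels' protocols, and Agilent Feature Extraction 11.5.1.1 is named per the submitters' processing notes. The deposited per-array files hold the authors' intensity per spot, headed as raw and linear, with no flags or background columns. The sources used here do not give its background correction. A deposited table of intensities by feature number, close to those signals times 2.27 and 2.26 (column medians 34.4 and 34.8), served as an alternative. It is linear and not centred, and how its constants were chosen stays unknown.

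Log2 signals of the spots of each probe were averaged, then scaled by the 75th percentile. A gene is the mean of its probes detected on 1 array or both, and gene signals are geometric means over them. Symbols were updated through RefSeq accessions (GRCm38.p6), which left the 17 integrin probes as they were.

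The integrin chains and lists were chosen with earlier results of these data known. Named are all 10 chains; of other lists, genes past 2-fold and the 2 furthest from 0; and Itgae, Itgam, Itgax, Itga5, Icam1, Tln1, Fermt3, Gfi1 and, as controls, Actb (-0.05) and Gapdh (0.04). Itgb6, Itgb8, Itga2b, Icam2, Icam4, Icam5, Vcam1, Fn1, Cd47, Cd44, the cell type markers and the sex-linked genes were named after their values were seen. The same holds for Tbx21 and Ifng. Markers of granulocytes stood at a median of 0.25 (3 genes detected), of platelets at 0.47 (2 genes) and of stroma and endothelium at -0.14 (5 genes). Steps were tested on simulated data. The tools were pandas 2.3.3, numpy 2.4.6, matplotlib 3.10.9 and statsmodels 0.14.6 under Python 3.11.15.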

Additional observations from a re-analysis of the deposited data

How the results depend on the processing

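The 13 alternatives for the values were no scaling, cyclic loess (span 0.3), median scaling, quantile normalization, the deposited table, floors at the 25th and 75th percentile, no floor or filter, the brightest probe, the median over probes, probes detected on both arrays, an offset of 16 units and leaving out spots above feature number 50000. Itgav stayed above 0 in all 13 and past 2-fold in 11; with the floor at the 75th percentile its 0.51 is a lower bound set by that floor. The following counts have the share of all detected genes in that setting in brackets. The count of chains at least 2-fold higher was 1 (3.62%). It became 0 with the floor at the 75th percentile (1.56%), without the spots above 50000 (3.12%) and at a 3-fold threshold (1.60%). With no floor or filter it became 2 of 10 (4.84%), where Itga2 joined on signals below the floor. The count of lower chains became 1 at a 1.5-fold threshold (4.25%). This was Itga4 at 1.51-fold, a mean of its bright probe at 1.47-fold and its dim probe at 1.55-fold. The median of the chains moved to 0.22 over 10 chains with the floor at the 25th percentile and with no floor or filter, to -0.052 with the floor at the 75th and to -0.0070 with the brightest probe. Of the pathway genes, 1 of 46 was higher with the floor at the 75th percentile (1.56% of all detected genes) and 3 of 63 at 3-fold (1.60%). With probes detected on both arrays 4 of 60 were higher (2.99%), and with the offset of 16 units 4 of 63 (2.52%). Lower were 1 of 76 with the floor at the 25th (3.56%), 1 of 81 with no floor or filter (3.08%) and 3 of 63 at 1.5-fold (4.25%). Beyond the fewer or added genes and the other threshold, the cause was not tested. Scalings moved the median of all genes by at most 0.06. No paired analysis was possible because each genotype label has 1 array, and the number of arrays limits the precision.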

Other observations

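Probes of 1 gene did not always give 1 reading. The 3 Itgam probes read 4250 and 5170 units (0.25), 33.0 and 27.3 units (-0.31) and 29.9 and 27.4 units (-0.16) on the wild-type-labelled and knockout-labelled arrays. Cd44, the hyaluronan receptor that marks antigen-experienced T cells, was read by 4 probes at 0.06, -0.14, 0.29 and -0.63, the bright ones (4360 and 4660 units, 3770 and 3490 units) nearer to 0 than the dim ones. The 3 Cd82 probes, in contrast, gave 0.57, 0.47 and 0.53. Whether such probes read different transcripts was not tested.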
